A study of Mus musculus with 15 samples.

Results

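The potassium channel genes of the mouse were described here in nuclei of the ventral tegmental area, the midbrain region that holds many of the brain's dopamine neurons. Members were all rows of the deposited count table whose symbol begins with Kcn and a further lower-case letter. Of 98 such symbols, 94 were described and 4 were not analysed here, out of 35976 genes listed. Male heterozygous DAT-Cre mice, aged 8 to 12 weeks, express Cre recombinase from the dopamine transporter gene. All of them received AAV5-DIO-KASH-HA, a virus that puts an HA tag on the nuclear envelope where Cre is present, 14 days before training. Nuclei were sorted for the tag, and each library pooled tissue punches from 2 mice.

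Dopaminergic (DA, HA-positive) nuclei were taken at 3 stages. The food-trained group (FT, n = 4) was taken after the last of 7 days of lever pressing for food. The maintenance group (MN, n = 3) also went through intravenous cocaine self-administration in daily sessions of 1 hour, with 5 days at 0.3 mg/kg per infusion and 10 days at 1.0 mg/kg per infusion, and was taken after the last session. The abstinence group (CRV, n = 4) followed the same course and then 21 days of abstinence in the home cage. Non-dopaminergic (nDA, HA-negative) nuclei came from food-trained mice (n = 4). The stages follow one another, so drug, surgery, age and time cannot be told apart. The HA-positive gate marks cells infected by the virus that also express Cre, so it is a sample of dopamine neurons. Libraries are separate samples per the labels, which do not say whether same-numbered DA and nDA libraries share tissue.

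Potassium channels let potassium leave or enter the cell and so set the resting potential, end the action potential and pace firing. Voltage-gated (Kv) pores open on depolarisation, silent Kv subunits form channels only together with Kv2 subunits, inward rectifiers pass current near rest, two-pore channels carry leak current, and calcium- or sodium-activated channels respond to ions that enter during firing. In dopamine neurons, the A-type current carried by Kv4 subunits and the small-conductance calcium-activated (SK) current are known to shape slow pacemaking. The 94 members comprised 17 pore subunits of Kv1 to Kv4, 10 silent Kv subunits, 5 Kv7 subunits, 8 of the EAG, ERG and ELK group, 8 calcium- or sodium-activated subunits, 12 inward rectifiers, 14 two-pore subunits, 16 auxiliary subunits and 4 other genes.

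Libraries held between 25813697 and 59046618 counts, and the members took between 0.326% and 0.556% of them. Between 58 and 85 members had at least 1 count in a DA library, and 87 or 88 in an nDA library. The sort separated the populations: Slc6a3, the dopamine transporter gene, lay between 2270 and 4501 CPM (counts scaled to a common library size and composition) in FT DA and between 79.1 and 120.0 CPM in nDA. The 13 dopamine neuron markers summed to 7069 to 13897 CPM in FT DA and 354 to 572 CPM in nDA, with 10 of 13 above in every library and 0 below. In nDA, markers were higher in every library for 9 of 10 oligodendrocyte genes (9848 to 23351 against 1760 to 2806 CPM summed) and 4 of 8 astrocyte genes (1647 to 3151 against 790 to 1005). The same held for 7 of 8 microglial genes (1602 to 3115 against 517 to 945), 4 of 6 vascular genes (240 to 446 against 9.68 to 185), 3 of 5 oligodendrocyte precursor genes and 2 of 4 GABA neuron genes, while all 3 glutamate neuron genes overlapped. Sums are over each whole list. No marker was at 0 in every library of a group. The 3 MN libraries and nDA replicate 2 had the lowest slopes of log2 level on percent GC of the transcript. They are called below the libraries that stand apart. The slope was -0.0224 to -0.0377 in them, -0.0167 to 0.0204 in the other DA libraries and 0.0209 to 0.0323 in the other nDA libraries. Among DA libraries there was no clear break: FT DA replicate 2, not counted among them, was at -0.0167, near MN replicate 2 at -0.0224.

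Between 58 and 74 members had a count in an FT DA library, against 87 or 88 in nDA. In each population, 54 members had a mean of at least 10 CPM and 11 a mean of at least 100 CPM. Kcne1 and Kcnj1 had 0 counts in all 15 libraries, 14 members had 0 counts in every FT DA library and 4 had 0 counts in every nDA library. To compare levels between genes, CPM was divided by the length in kilobases of the longest annotated transcript. On that scale Kcna1, a low-threshold delayed rectifier, was the highest member in both populations, at 91.6 ± 28.2 CPM per kilobase in FT DA (SD, n = 4) and 148 ± 28.1 in nDA (SD, n = 4). Kcnk1, a two-pore leak subunit, followed in both at 75.1 ± 30.3 and 76.3 ± 23.0 CPM per kilobase. The third place differed: in FT DA it was held by Kcnd3 (40.0 ± 6.84) with Kcnc1 (39.9 ± 8.94), and in nDA by Kcnc1 (43.6 ± 10.2), with Kcnd3 at 10.7 ± 1.13. Kcnc1 and Kcnc2, Kv3 pores that repolarise fast spikes, lay between 31.9 and 43.6 CPM per kilobase in both populations, and these neighbours in the order did not differ beyond their spread. The Kv1 to Kv4 pores made up 50.0% ± 1.64 of the summed signal per kilobase in FT DA and 51.5% ± 3.76 in nDA. That sum left out the auxiliary subunits and the genes counted as other.

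**Figure D1:**
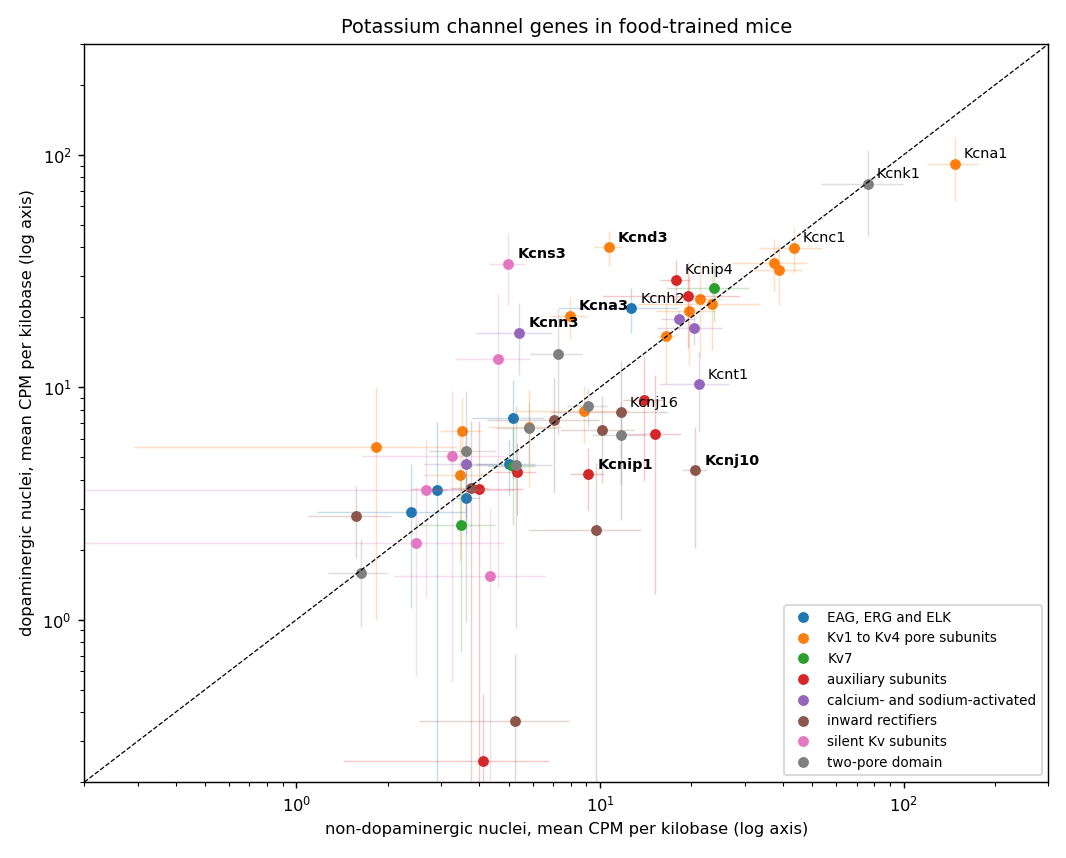
Mean CPM per kilobase of transcript in FT dopaminergic (vertical) against FT non-dopaminergic nuclei (horizontal), both on log axes, for the 59 members with a mean of at least 10 CPM in either. Points are means of 4 libraries coloured by family, bars are SD (cut where they would reach 0) and bold names passed the test; most members lie near the dashed line of equality, with Kcnd3, Kcns3, Kcnn3 and Kcna3 above it and Kcnj10 and Kcnip1 below.

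The comparison of FT DA with FT nDA asked which channel genes differ between dopamine neurons and the rest of the region. Kcnd3, Kcns3, Kcnn3 and Kcna3 were higher in DA nuclei, by 2.56- to 6.83-fold in mean CPM. Kcnj10 and Kcnip1 were lower, and 7 further genes had 0 counts in every FT DA library and entered the test through the nDA libraries alone, so that their direction was set by the filter on low counts. Of 84 members tested with edgeR's quasi-likelihood test (Benjamini-Hochberg adjustment over all 19786 genes tested, threshold 0.05), 13 passed, 4 higher and 9 lower. Of all genes tested, 12.8% passed, 3.63% higher and 9.17% lower, so the share of members that passed was near that of all genes. With 10 counts required in every library, which leaves the 7 genes out, fewer members were tested and 6 passed, against 13.5% of all genes. With a block for replicate number, Kcnd3, Kcns3, Kcnn3 and Kcnj10 passed and the other calls were lost. The median log2 fold change was -0.12 over the tested members and -0.21 over all genes tested. In bulk nuclei, fewer cells of a type and less RNA per cell cannot be told apart. Members overlapping an antisense gene carry a further limit: strand use in counting is not given in the sources used here.

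Kcnd3, Kcnn3 and Kcna3 lie on chromosome 3, and the 250 bases before their RefSeq start (GRCm38.p6, plus strand, 5′ to 3′) are shown because these 3 members were all higher in DA. Capitals mark matches to the GC box, searched as GGGCGG on both strands. Other motifs searched on both strands were the Nr4a2 site AAAGGTCA, the Pitx3-type site TAATCC, the forkhead site TGTTTAC, the Creb site TGACGTCA and the TATA box TATAAA, and none of these letters lies in the windows.
Kcnd3, chr3:105451640-105451889: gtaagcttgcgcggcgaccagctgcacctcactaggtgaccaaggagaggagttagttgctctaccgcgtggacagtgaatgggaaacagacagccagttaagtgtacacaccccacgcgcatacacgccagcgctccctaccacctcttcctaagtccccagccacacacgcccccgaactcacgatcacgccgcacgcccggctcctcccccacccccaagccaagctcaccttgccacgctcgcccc
Kcnn3, chr3:89519914-89520163: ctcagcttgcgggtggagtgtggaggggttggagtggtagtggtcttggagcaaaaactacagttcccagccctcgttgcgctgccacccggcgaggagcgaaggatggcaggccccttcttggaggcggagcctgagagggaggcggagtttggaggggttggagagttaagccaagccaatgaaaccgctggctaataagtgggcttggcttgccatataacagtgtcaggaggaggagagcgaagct
Kcna3, chr3:107035912-107036161: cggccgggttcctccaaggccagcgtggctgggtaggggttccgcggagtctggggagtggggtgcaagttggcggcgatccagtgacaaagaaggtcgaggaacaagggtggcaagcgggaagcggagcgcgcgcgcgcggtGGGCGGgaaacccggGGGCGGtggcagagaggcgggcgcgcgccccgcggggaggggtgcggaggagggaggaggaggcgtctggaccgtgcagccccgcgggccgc
Of 32851 promoter windows of this length, 32.7% held the GC box, 1.34% the Nr4a2 site, 6.25% the Pitx3-type site, 3.17% the forkhead site, 1.55% the Creb site and 12.4% the TATA box. The Kcna3 window held 2 GC boxes, at -107 to -102 and -92 to -87 from the start, and 31 CG dinucleotides. The Kcnd3 and Kcnn3 windows held 18 and 10 CG dinucleotides, against a median of 6 over all windows. The window of Kcns3 lies within an annotated first exon and is not shown. The RefSeq start of Kcnd3 (105451890) lies before its GENCODE start (105452330), and the Kcnd3 window lies within the antisense gene Kcnd3os.

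Among the Kv4 pores, which carry the A-type current, Kcnd3 was higher in DA nuclei. It lies at 105452330 to 105674002 on chromosome 3 (GRCm38). Its level was 220.4, 279.6, 322 and 325 CPM in FT DA replicates 1 to 4 and 71.2, 73.0, 73.8 and 88.8 CPM in nDA. Every DA library was above every nDA library, and the log2 fold change was 1.91 (SE 0.19, adjusted p = 0.00166, edgeR). Kcnd3os, an antisense gene at 105441595 to 105452955, overlaps the start of Kcnd3 and reached at most 0.904 CPM in these 8 libraries. The paralog Kcnd2 lay at 39.1, 102, 112 and 90.6 CPM in FT DA and between 78.2 and 91.0 CPM in nDA, so the populations overlapped. Kcnd3 thus made up 66.8% ± 7.46 of the Kv4 signal per kilobase in FT DA (SD, n = 4) and 34.8% ± 1.52 in nDA (SD, n = 4), and Kcnd2 made up 26.5% ± 5.37 and 53.9% ± 3.34. The shares of Kcnd3 did not overlap, at 59.0% to 76.0% against 33.8% to 37.0%.

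Genes of subunits that bind Kv4 pores were mixed. Kcnip1, a calcium-binding KChIP subunit, was lower in DA, at 17.1, 24.0, 16.6 and 11.4 CPM against 43.3, 33.9, 33.0 and 39.7 CPM (log2 fold change -1.11, SE 0.30, adjusted p = 0.0419, edgeR). This call was lost in 7 of the 8 fits that left out 1 library: without DA replicates 1, 3 and 4 the adjusted p was 0.0625, 0.0532 and 0.0532, and without nDA replicates 1 to 4 it was 0.165, 0.0657, 0.0923 and 0.115. Kcnip4, another KChIP, did not pass (log2 fold change 0.72, SE 0.22, adjusted p = 0.0640, edgeR), with 55.9, 57.1, 81.5 and 83.7 CPM in DA against 35.7 to 47.1 CPM in nDA and no overlap. It was higher with DESeq2. Within the KChIP genes, Kcnip4 made up 68.7% ± 5.30 of the signal per kilobase in FT DA and 39.8% ± 6.88 in nDA. Kcnip3 lay at 24.0 ± 13.2 CPM in DA and 38.2 ± 5.81 CPM in nDA and did not pass. Kcnip2 lay at 2.63, 0, 0 and 0.436 CPM in DA and 10.1, 5.52, 10.6 and 24.8 CPM in nDA, without overlap (adjusted p = 0.181, edgeR), and was lower with DESeq2 and limma-voom. Of 14 channel partner genes that are no members, 12 were tested, 2 were higher in DA and 0 were lower, against 3.63% and 9.17% of all genes. They were Dpp10, a transmembrane partner of Kv4 (230.2 ± 84.2 against 96.1 ± 18.5 CPM, adjusted p = 0.0183, edgeR), and Lrrc55, an auxiliary subunit of the large-conductance BK channel (82.7 ± 29.7 against 28.9 ± 8.47 CPM, adjusted p = 0.0104, edgeR). Dpp6, the paralog of Dpp10, overlapped between the populations and did not pass (535 ± 206 against 365 ± 61.1 CPM, adjusted p = 0.259, edgeR).

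Kcns3, a silent subunit that modifies Kv2 channels, had the largest log2 fold change among the members that passed with counts in both populations. It lies at 11090202 to 11151056 on chromosome 12. Its level was 52.4, 112, 103 and 132 CPM in FT DA and 12.0, 16.7, 14.5 and 15.2 CPM in nDA. The lowest DA library was above the highest nDA library (log2 fold change 2.78, SE 0.31, adjusted p = 0.00252, edgeR). Of the other silent subunits, 0 of the 8 tested passed with edgeR, while DESeq2 passed Kcnv2 and limma-voom passed Kcns1, both lower in DA. Kcng4 spread from 5.75 to 109 CPM in FT DA against 11.5 to 22.7 CPM in nDA. Summed over the 10 silent subunits, the level was 43.4 to 85.5 CPM per kilobase in FT DA and 17.5 to 46.5 in nDA, with overlap. Kcnb2, a Kv2 pore that such subunits join, lay at 70.4, 122, 135 and 59.1 CPM in DA and 43.0 to 62.4 CPM in nDA and did not pass (adjusted p = 0.0856, edgeR). It was higher with DESeq2.

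Among the Kv1 pores, Kcna3 was higher in DA, at 29.3, 36.2, 47.9 and 41.3 CPM against 17.5, 13.7, 13.0 and 16.2 CPM without overlap (log2 fold change 1.37, SE 0.28, adjusted p = 0.00976, edgeR). With offsets for transcript GC content its log2 fold change was 1.16 and its adjusted p 0.0510 (edgeR). It also did not pass with a replicate block, with or without these offsets. Kcna1 lay at 369 ± 114 CPM in DA and 595 ± 113 CPM in nDA and did not pass (adjusted p = 0.132, edgeR). Kcna2 and Kcna4 lay within the spread of each other's populations, at 91.9 ± 25.6 against 103 ± 41.9 CPM and 102 ± 42.5 against 93.9 ± 20.8 CPM.

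Of the calcium- and sodium-activated subunits, Kcnn3, an SK pore, was higher in DA. It lies at 89520164 to 89675132 on chromosome 3. Its level was 107, 99.1, 203 and 162 CPM in FT DA and 52.9, 32.4, 58.3 and 36.5 CPM in nDA, without overlap (log2 fold change 1.68, SE 0.30, adjusted p = 0.00671, edgeR). Its paralog Kcnn2 was at 66.1 ± 10.4 and 74.9 ± 18.1 CPM. The share of Kcnn3 in the SK signal per kilobase was 46.6% ± 12.9 in FT DA and 19.7% ± 5.10 in nDA. Kcnma1, the BK pore, lay at 237 ± 22.9 and 221 ± 28.1 CPM. Kcnt1, a sodium-activated pore, did not pass (68.4 ± 25.7 against 140.2 ± 36.7 CPM, log2 fold change -1.03, SE 0.32, adjusted p = 0.0751, edgeR), and was lower with DESeq2.

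**Figure D2:**
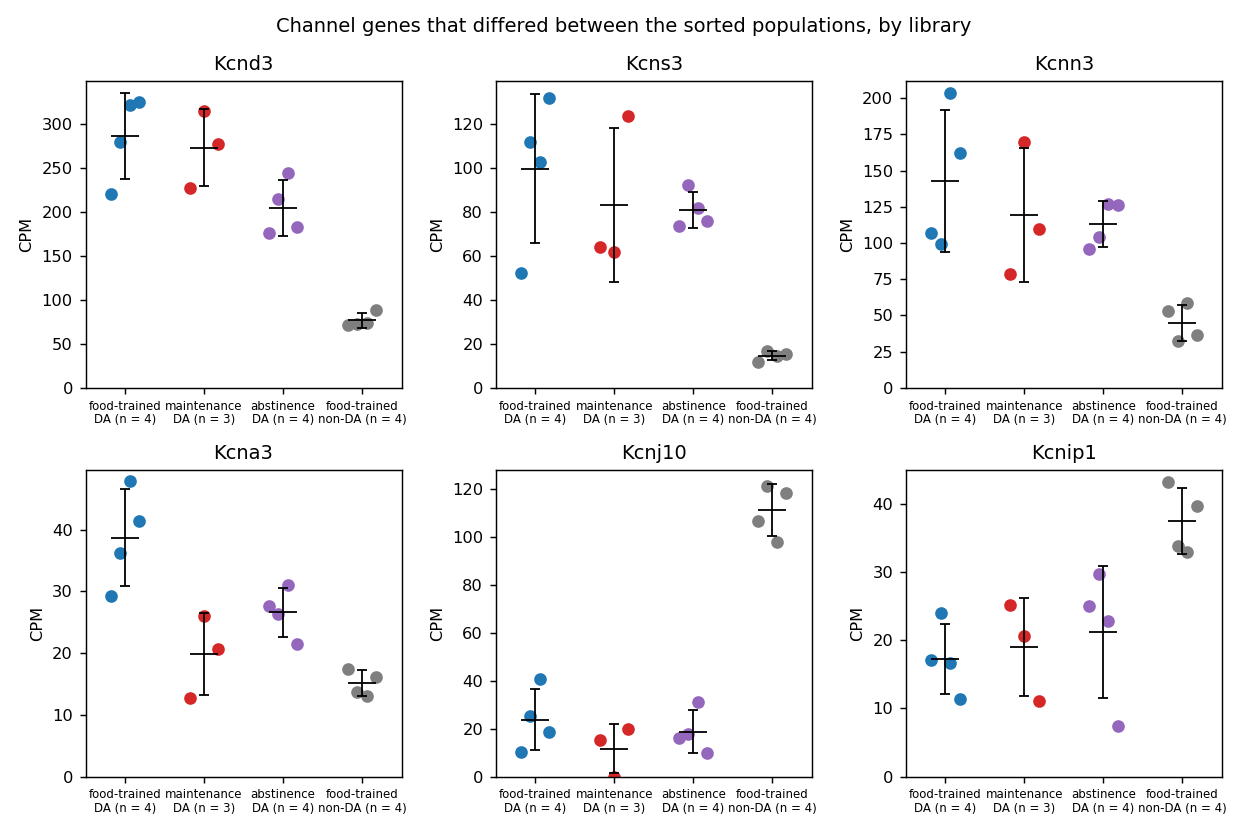
CPM of 6 members that passed the test between FT dopaminergic and FT non-dopaminergic nuclei, on linear axes from 0, in all 15 libraries. Points are libraries, and bars are the mean and SD of each group; Kcnd3, Kcns3 and Kcnn3 stay above every non-dopaminergic library at all 3 stages, and Kcnj10 stays below.

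Kcnj10, the inward rectifier through which glial cells clear potassium, was lower in DA. Its level was 10.5, 25.2, 40.8 and 18.7 CPM in FT DA and 107, 122, 98.1 and 119 CPM in nDA (log2 fold change -2.21, SE 0.38, adjusted p = 0.00670, edgeR). In the same libraries 9 of 10 oligodendrocyte and 4 of 8 astrocyte markers were lower in every DA library. The other astrocyte genes overlapped: Gfap (218 ± 63.9 against 218 ± 46.5 CPM), S100b (25.4 to 64.1 against 35.9 to 58.3 CPM), Aldh1l1 (47.1 ± 10.3 against 33.1 ± 8.94 CPM) and Slc1a2 (279 ± 64.1 against 406 ± 63.7 CPM). The part of these cells in the difference was not tested. In the fit of all 15 libraries its log2 fold change was -2.19 and its adjusted p 0.127 (edgeR). Kcnj16, which joins Kcnj10 in glia, lay at 29.0 ± 19.0 CPM in DA and 43.4 ± 18.1 CPM in nDA and did not pass. Kcnj8, known from vascular mural cells, had 0 to 3.73 CPM in DA and 6.65 to 22.9 CPM in nDA. It did not pass with edgeR and was lower with limma-voom. Among inward rectifiers known from neurons, Kcnj3 (34.1 ± 13.8 against 52.9 ± 14.4 CPM), Kcnj11 (11.6 ± 11.6 against 11.8 ± 1.61 CPM) and Kcnj2 (15.2 ± 5.17 against 8.57 ± 2.61 CPM) did not pass.

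Of the members, 7 passed with 0 counts in all 4 FT DA libraries, and of all genes tested 5.68% passed with a group at 3 counts or fewer. They make up 7 of the 9 members that were lower. Lower bounds took 3 counts per library as the floor. The FT DA level was at least 42.5-fold lower for Kcnk5, 29.9-fold for Kcnu1, 28.2-fold for Kcne1l and 10.3-fold for Kcnq1. The bound was 9.08-fold for Kcnk18, 7.19-fold for Kcne2 and 3.34-fold for Kcnmb4os1. Without nDA replicate 3 the bound for Kcnk18 was 5.31-fold. Their nDA level was low too, from 0.260 CPM (Kcnmb4os1) to 3.30 CPM (Kcnk5) on average. Kcnk5 held 202, 46, 186 and 173 counts in the nDA libraries, and Kcnmb4os1, antisense to the BK subunit gene Kcnmb4, held 11 to 13. The nDA libraries had 22733 to 23886 genes with a count and the FT DA libraries 14841 to 18372, and the part of this in the 7 differences was not tested. Some of these genes had counts in DA libraries of the other stages, such as Kcne2 with 98, 68 and 74 counts in CRV replicates 2 to 4. The bounds therefore hold for FT DA only.

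Other members with a known role did not pass. Among EAG, ERG and ELK genes 0 of 8 passed. Kcnh2, the ERG pore, lay at 118, 73.9, 79.4 and 98.8 CPM in DA and 58.0, 20.1, 64.8 and 71.0 CPM in nDA without overlap (adjusted p = 0.225, edgeR). Kcnq3, a Kv7 pore that carries the M-current, overlapped between the populations at 22.8 to 81.9 against 50.7 to 72.2 CPM. Of the two-pore subunits, Kcnk2 (49.8 ± 27.5 against 26.0 ± 5.08 CPM), Kcnk3 (31.6 ± 6.14 against 34.8 ± 5.23 CPM), Kcnk9 (9.68 to 28.0 against 14.0 to 24.5 CPM) and Kcnk10 (49.7 ± 14.6 against 43.7 ± 9.82 CPM) did not pass. The auxiliary subunits Kcnab1 (18.8 ± 6.47 against 23.3 ± 3.69 CPM) and Kcnmb4 (2.83 ± 3.04 against 3.03 ± 1.07 CPM) did not pass either. Without adjustment, 20 members had a p under 0.05, against 24.3% of all genes, and the groups did not overlap for 22, against 26.1% of all genes. DESeq2 passed 18 members (21.3% of all genes) and limma-voom 20 (21.6%).

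**Figure D3:**
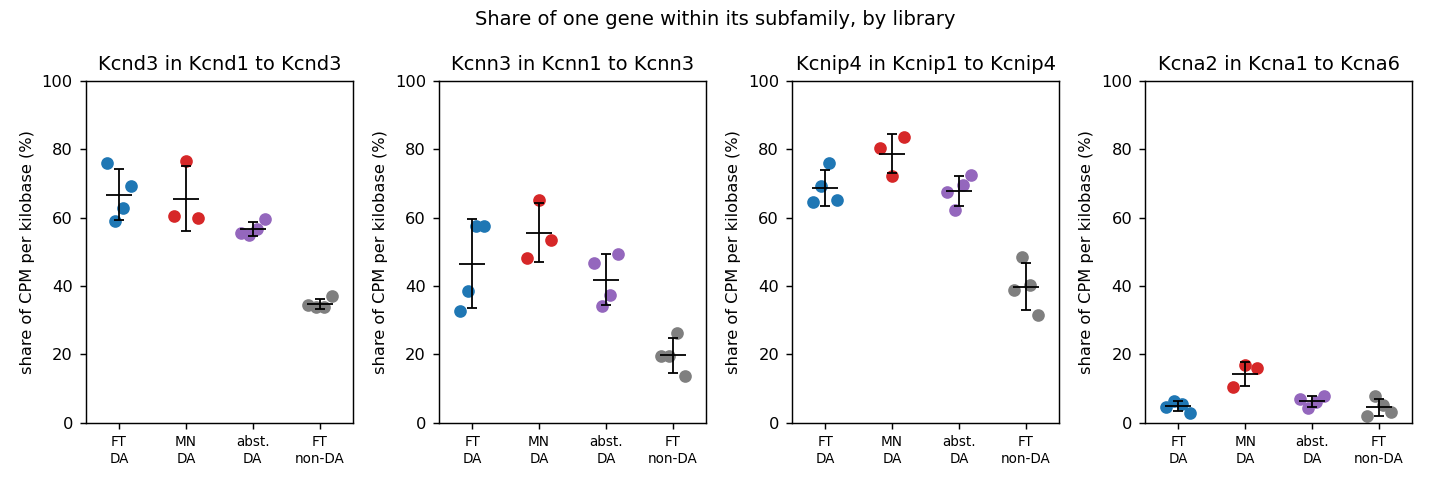
Share of one gene in the summed CPM per kilobase of its subfamily, in percent, in FT, MN and abstinence (abst.) dopaminergic and FT non-dopaminergic nuclei. Points are libraries, and bars are the mean and SD; Kcnd3, Kcnn3 and Kcnip4 hold larger shares in every dopaminergic library than in any non-dopaminergic one, and Kcna2 holds its largest shares at maintenance.

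The comparison of MN with FT asked which channel genes differ in DA nuclei after cocaine self-administration. None of the 79 members tested passed with edgeR, against 0.131% of all genes. The 5 members with the lowest p were Kcna2 and Kcnip4, with higher values at MN, and Kcnh2, Kcnk9 and Kcnab2, with lower ones. Beside them, some cell type markers were lower in every MN library than in any FT DA library. They were 4 of 10 oligodendrocyte markers (Mbp, Mog, Mag and Mobp) and 3 of 13 dopamine neuron markers. The latter were Pitx3 (0.937 to 3.72 against 14.0 to 61.9 CPM), En1 (71.4 to 81.4 against 82.5 to 215 CPM) and Ret (877 to 1048 against 1134 to 2174 CPM). Sums over each whole list overlapped, at 1156 to 1776 against 1760 to 2806 CPM for oligodendrocyte markers. For dopamine neuron markers the sums were 7795 to 10839 against 7069 to 13897 CPM. Markers above every FT DA library were 1 of 4 GABA neuron genes (Gad2, 69.9 to 196 against 45.7 to 67.2 CPM) and 1 of 8 microglial genes, and the astrocyte and oligodendrocyte precursor lists each had 1 gene above and 1 below. The part of these markers was not tested. Without adjustment 16 members had a p under 0.05 (11.6% of all genes), 4 with higher values at MN (4.88% of all genes) and 12 with lower ones (6.74%). DESeq2 passed 10 members (6.07% of all genes), these 5 among them, and limma-voom with quality weights passed 0 (0.0472%). For 12 members the groups did not overlap, against 8.45% of all genes. The median log2 fold change was -0.14 over members and -0.01 over all genes tested.

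Kcna2, a delayed rectifier of axons, lay at 285, 209.5 and 334 CPM in the 3 MN libraries and at 112, 115, 79.1 and 62.2 CPM in FT DA. The groups did not overlap, with a log2 fold change of 1.58 (SE 0.30, adjusted p = 0.0650, edgeR), and without MN replicate 2 the adjusted p was 0.0474. Its share of the Kv1 signal per kilobase was 14.4% ± 3.52 at MN (SD, n = 3) and 4.79% ± 1.49 in FT DA (SD, n = 4). Kcnip4 lay at 118, 122 and 125 CPM at MN and at 55.9 to 83.7 CPM in FT DA, again without overlap (log2 fold change 0.80, SE 0.23, adjusted p = 0.247, edgeR). At abstinence Kcna2 lay at 112, 91.0, 178 and 109 CPM and Kcnip4 at 67.2 to 82.1 CPM, both overlapping with FT DA and below every MN library.

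Kcnh2 lay at 40.9, 29.2 and 20.3 CPM at MN and at 73.9 to 118 CPM in FT DA (log2 fold change -1.63, SE 0.34, adjusted p = 0.0915, edgeR). Kcnab2, a cytoplasmic beta subunit of Kv1 channels, lay at 43.5, 30.6 and 19.6 CPM against 122, 86.8, 46.4 and 133 CPM (log2 fold change -1.64, SE 0.45, adjusted p = 0.211, edgeR). Kcnk9, an acid-sensitive leak subunit, lay at 2.19, 4.78 and 4.77 CPM against 16.7, 9.68, 23.4 and 28.0 CPM (log2 fold change -2.31, SE 0.60, adjusted p = 0.179, edgeR). All 3 had MN libraries below every FT DA library. With a term for the libraries that stand apart, which for MN rests on nDA replicate 2 alone, Kcnh2 and Kcnab2 turned to 0.038 and 0.37 on the log2 scale. Of the members named for the populations, Kcnd3 (273 ± 44.0 CPM at MN), Kcns3 (83.2 ± 35.0) and Kcnn3 (119 ± 46.2) overlapped with FT DA.

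In nDA replicate 2, a food-trained library that stands apart with the MN libraries, several of these genes lay outside the range of the other nDA libraries. Kcnh2 was at 20.1 CPM there and at 58.0 to 71.0 CPM in the other nDA libraries, and Kcnab2 at 23.2 against 86.5 to 106 CPM. Kcna2 was at 150.1 CPM there and at 55.7 to 123 CPM in the others. Among the 16 members with an unadjusted p under 0.05, nDA replicate 2 lay outside the other 3 nDA libraries in the direction of MN for 11 and in the opposite direction for 2. Over all such genes the shares were 62.9% and 10.3%. Transcripts of high GC content had lower values at MN: among members with a mean of at least 10 CPM, 18 of 24 with at least 50% GC had a negative log2 fold change, and 10 of 23 under 50% GC. Across these 47 members, which share libraries, Spearman's rho between log2 fold change and GC content was -0.40, and it was -0.32 across 10257 genes. What set these libraries apart was not tested.

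**Figure D4:**
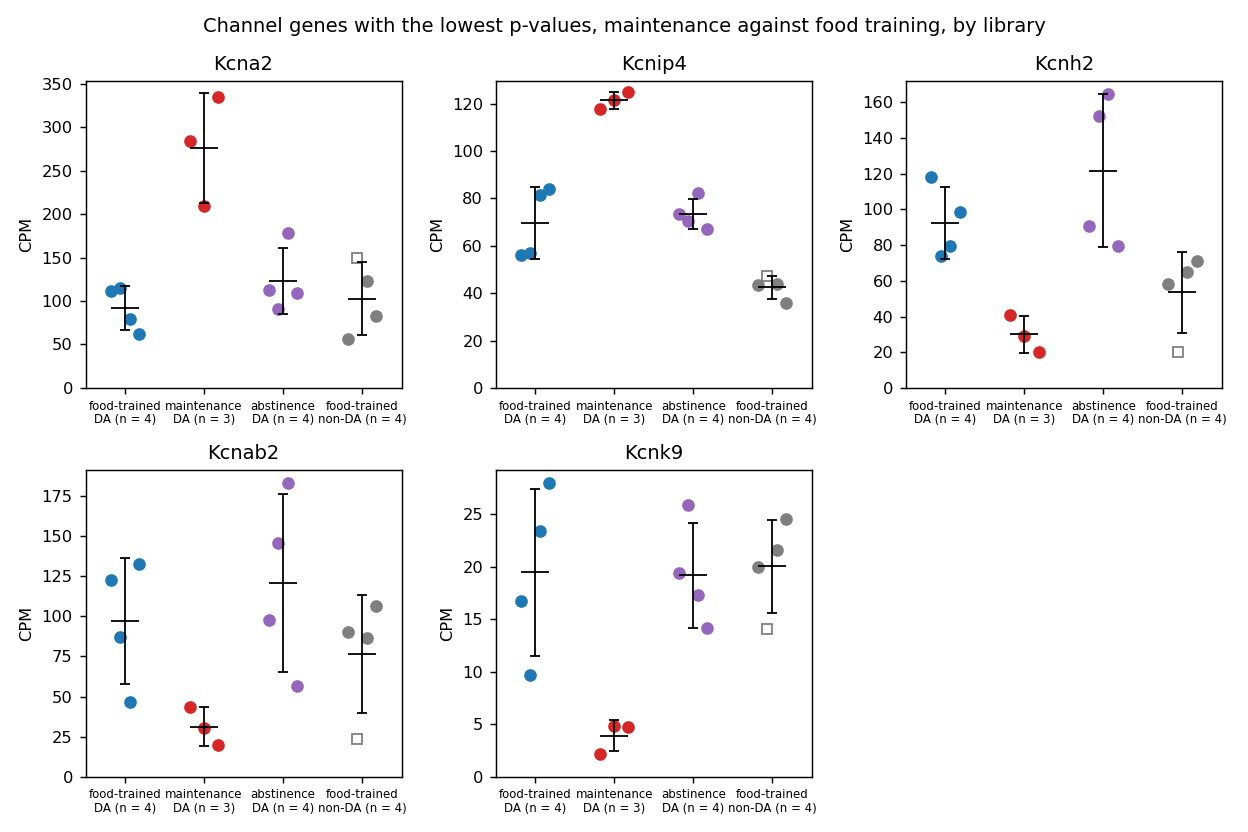
CPM of the 5 members with the lowest p-values between MN and FT dopaminergic nuclei, on linear axes from 0, in all 15 libraries. Points are libraries, bars are the mean and SD, and the open square is non-dopaminergic replicate 2; it lies below the other non-dopaminergic libraries for Kcnh2, Kcnab2 and Kcnk9, and above them for Kcna2 and Kcnip4.

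The comparison of abstinence with FT asked which differences are present after 21 days without cocaine. None of the 79 members tested passed with edgeR, against 0% of all genes, and DESeq2 (0.919% of all genes) and limma-voom (0% of all genes) passed 0 members each. Without adjustment 4 members had a p under 0.05, against 4.3% of all genes, and for 0 members did the groups not overlap, against 3.34% of all genes. They were Kcnt1 (113, 124, 124 and 91.4 CPM against 87.1, 55.8, 38.4 and 92.2 CPM, log2 fold change 0.72, SE 0.29), Kcnd3 (176, 215, 245 and 183 CPM against 220.4 to 325 CPM, log2 fold change -0.50, SE 0.22), Kcne2 and Kcnu1. Kcne2 had 0 counts in every FT DA library and in CRV replicate 1. Kcnu1 had 0 counts in every FT DA library and 0, 18, 24 and 0 counts in CRV. The median log2 fold change was 0.15 over members and 0.04 over all genes tested.

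The comparison of abstinence with maintenance shares the MN libraries with that of MN against FT and the CRV libraries with that of abstinence against FT. Kcnh2 alone passed of 79 members tested, against 0.178% of all genes (0.168% higher in CRV), and it was higher in CRV. Its level was 90.9, 153, 164 and 79.3 CPM in CRV and 40.9, 29.2 and 20.3 CPM in MN, without overlap (log2 fold change 2.01, SE 0.35, adjusted p = 0.0434, edgeR). The call was lost without MN replicates 1, 2 and 3 (adjusted p = 0.0653, 0.0765 and 0.212, edgeR) and without CRV replicates 1, 2 and 3 (adjusted p = 0.0741, 0.121 and 0.138, edgeR). With offsets for GC content the log2 fold change was 1.29, with an adjusted p of 0.246 (edgeR). With the term that rests on nDA replicate 2 it was 0.35. The Kcnh2 transcript has 61.3% GC. In this comparison Spearman's rho between log2 fold change and GC content was 0.50 across 49 members with a mean of at least 10 CPM. Across 10322 genes it was 0.34. The next lowest p-values belonged to Kcnab2 (121 ± 55.5 against 31.2 ± 11.9 CPM), Kcna2 (123 ± 38.1 against 276 ± 62.9 CPM), Kcnk9 (19.2 ± 4.98 against 3.91 ± 1.49 CPM) and Kcnip4 (67.2 to 82.1 against 118 to 125 CPM), which did not pass with edgeR. All 4 passed with DESeq2. Without adjustment 13 members had a p under 0.05 (9.92% of all genes), and the groups did not overlap for 13 (12.2% of all genes). DESeq2 passed 8 members (4.83% of all genes) and limma-voom passed 0 (0.157%). When all 3 stages were tested at once, 0 of 79 members passed with edgeR (0.0839% of all genes) and 9 had an unadjusted p under 0.05 (7.85% of all genes). In that test DESeq2 passed 5 members (2.84% of all genes) and limma-voom 0 (0.063%). Of the 12 partner genes tested, 0 passed in any stage comparison.

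**Figure D5:**
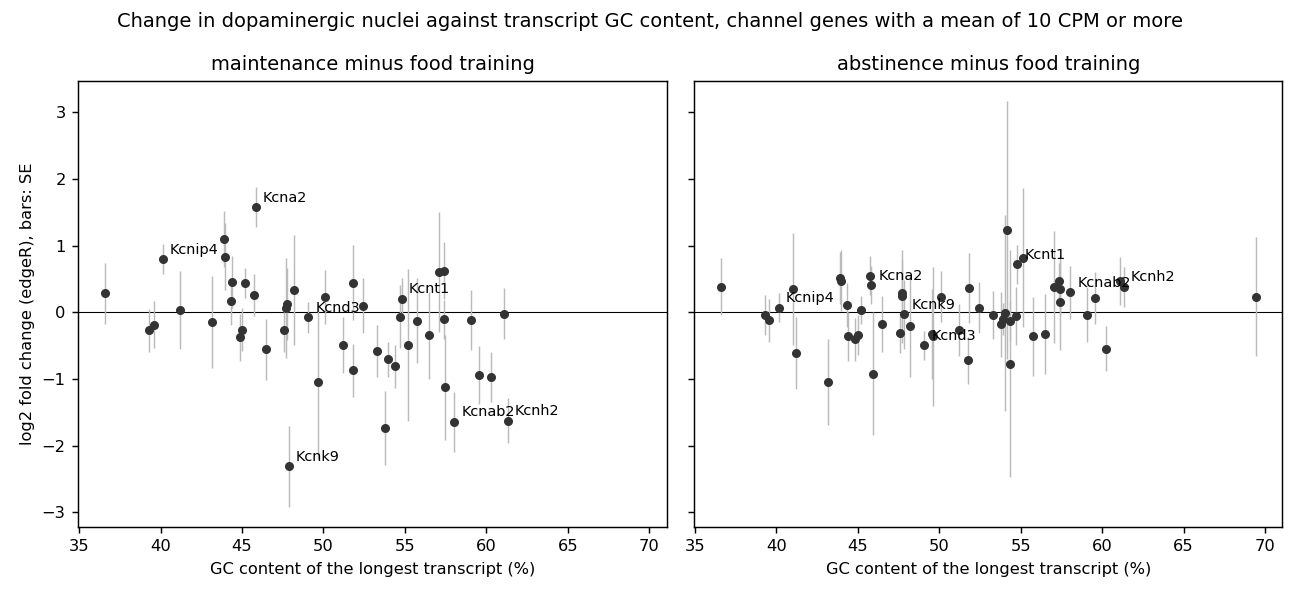
Log2 fold change of members with a mean of at least 10 CPM against the GC content in percent of their longest transcript, for MN minus FT (left) and abstinence minus FT (right) in dopaminergic nuclei. Points are edgeR estimates and bars are SE; values are lower at higher GC content on the left (Spearman's rho -0.40, 47 members) and show a rho of 0.17 on the right (54 members), and both panels share the FT libraries.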

How the data were processed

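RNA of sorted nuclei was sequenced from low-input libraries without molecular identifiers, per the labels' protocols. The authors deposited whole-number counts per gene. The submitters' processing notes name Trim Galore 0.6.7, cutadapt 1.18, STAR 2.7.10a, StringTie 2.1.5, DESeq2 1.38.3 and the build GRCm38 (mm10). The annotation and strand setting are not given in the sources used here. A second deposited table of 10 columns equals the first (0 cells differ) and was not used. The members, lists and tests were chosen with earlier results of these data known. Members were named if they passed, were among the 5 lowest p-values of a comparison or the 5 highest levels per kilobase, have a known role in dopamine neurons or glia, or are partner genes. Kcnd2, Kcng4, Kcnj8, Kcnip2, Kcnv2, Kcns1, Kcnd3os and Kcna10 were named beside these after their values were seen. Some members that this rule names are not reported here. The floor of 3 counts covers counting error only.

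Counts were tested with edgeR 4.0.16 in R 4.3.3 (filterByExpr, TMM, quasi-likelihood test, two-sided): 8 FT libraries for the populations and 11 DA libraries for the stages. CPM used TMM over 15 libraries. Lengths and GC content came from GENCODE M21, in which 26763 symbols matched directly, 515 through another symbol and 8698 not; all 94 members matched. Promoters came from RefSeq GRCm38.p6, with 68 members in the table. The showing of 3 windows was settled after viewing them. Replicates carry the same numbers across groups, but the labels do not say whether same-numbered DA and nDA libraries came from the same tissue. In the text, a gene passed or did not pass by edgeR unless another tool is named. P-values set a difference between groups against the spread between libraries of pooled mice. Alternatives used DESeq2 1.42.0, limma 3.58.1 (voom), other scalings and filters, GC offsets, a replicate block and leaving out each library. The procedure was also run on simulated counts that had the same spread for all genes and groups. The real libraries differ in spread, so that run checks the code only.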

Additional observations from a re-analysis of the deposited data

Results flagged for a closer look

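In groups of 4 libraries, the highest or lowest library was compared with the others by its gap over the group's range (Dixon's 95% critical value), where the group's highest value reached 10 CPM, a minimum chosen after the data were seen. Over 38 genes and 89 groups, 4 groups had such a library, and chance gives about 1 in 20. Kcnd3 was at 88.8 CPM in nDA replicate 4 and at 71.2 to 73.8 CPM in the others, which stay below every DA library. Kcnt1 was at 85.7 CPM in nDA replicate 2 and at 154 to 165 CPM in the others. Kcnj16 was at 2.97 CPM in abstinence replicate 4 and at 16.5 to 19.2 CPM in the others. Kcnma1 was at 277.6 CPM in abstinence replicate 4 and at 227 to 235 CPM in the others.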

How the results depend on the processing

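Fewer members were tested where 10 counts were required in every library. Between DA and nDA, 13 members passed, against 12.8% of all genes. The count was 6 when 10 counts were required in every library (13.5% of all genes), 20 with limma-voom (21.6%), 7 with a term for the 4 libraries that stand apart (4.42%), 4 with a replicate block (3.92%) and 4 with GC offsets and the block (4.08%). Kcna3 was lost in both block fits (log2 fold change 1.35 and 1.19, adjusted p = 0.103 and 0.160, edgeR). Leaving out 1 library gave 12 to 20, with 20 without DA replicate 4 (18% of all genes). DESeq2 passed 18. Kcnd3, Kcns3 and Kcnn3 passed in all 19 alternatives. At maintenance against food training, 0 passed, 2 (Kcna2 and Kcnh2) did with 10 counts in every library (0.961% of all genes), 10 with DESeq2, and 0 to 1 on leaving out 1 library. At abstinence against maintenance, 1 passed, against 8 with DESeq2 and 0 with upper quartile scaling, limma-voom, all 15 libraries in one fit, the block, GC offsets with or without the block, and the term for the libraries that stand apart. Leaving out 1 library gave 0 to 1. For any stage difference, 0 passed, 2 with 10 counts in every library (0.361% of all genes) and 5 with DESeq2. At abstinence against food training 0 passed in every alternative, including one added after the data were seen, with the 3 maintenance libraries left out. The term for the libraries that stand apart rests, for the maintenance group, on nDA replicate 2 alone, since all 3 maintenance libraries carry it. With it, the log2 fold changes at maintenance against food training were 0.038 for Kcnh2 and 0.37 for Kcnab2, of opposite sign but with unadjusted p = 0.946 and 0.627 (edgeR), 0.77 for Kcna2, -1.68 for Kcnk9 and 0.58 for Kcnip4, and Kcnab2 was at -0.064 and Kcnh2 at 0.35 at abstinence against maintenance. The same-numbered DA and nDA libraries correlated at 0.066, 0.082, 0.143 and 0.115 after removing group means, not all above 0.1, so the block stands only here. Each DA library correlated best with its own number, and nDA replicate 1 did not. Over single named genes, 441 values under the alternatives kept direction and side of the threshold, 57 lost the call and 12 gained it. Counting depth limits members at a few counts, and 3 libraries limit the maintenance group.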

Other observations

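Kcna3, Kcna2 and Kcna10 lie beside one another on chromosome 3 (GRCm38), at 107036169 to 107038070, 107101146 to 107115005 and 107183056 to 107195721. At maintenance their values went in different directions from food training: Kcna2 lay at 209.5 to 334 CPM against 62.2 to 115 CPM, Kcna3 at 12.7 to 26.0 CPM against 29.3 to 47.9 CPM, and Kcna10 had 0 counts in all 11 DA libraries. Neither difference passed with edgeR, and both passed with DESeq2. The Kcna2 transcript has 45.8% GC and the Kcna3 transcript 60.3%.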
